A study of Homo sapiens with 6 samples.

Results

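Aminoacyl-tRNA synthetases, the enzymes that join each amino acid to its tRNA, were examined in T24 cells after knockdown of circ235 (circ_0000235). The group was listed by function and held 38 genes of the 58288 in the count table. It comprised 19 genes for cytosolic synthetases, 16 for mitochondrial synthetases, and the genes AIMP1, AIMP2 and EEF1E1, whose products hold several cytosolic synthetases together in the multisynthetase complex. The genes were chosen by what their products do, and no threshold on a measured value entered the choice, but the list was drawn up with the fold changes of these libraries known. Counts over the list are therefore descriptions, and tests are given only for single genes. All 38 passed the filter on low counts, among 14415 genes in total, but SARS2 passed through the si-circ235-2 libraries alone and dropped out of a fit of NC and si-circ235-1.

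T24 is an established human bladder cancer cell line. Cells received a negative control siRNA (NC), si-circ235-1 or si-circ235-2, the latter pair being siRNAs aimed at different targets in circ235, a circular RNA formed from exons of CCNY. Each condition had 2 biological replicates according to the labels, giving 6 libraries of poly(A)-selected RNA with 15373992 to 19912893 gene counts each. All cells, NC included, were T24 cells given an siRNA, and untreated cells were not analysed here. Poly(A) selection does not capture a circular RNA by design, so the knockdown itself was not checked in these libraries. Both siRNAs were compared with the same NC libraries, so the comparisons with NC are not independent of each other, and they were set against one another directly as well.

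The libraries held transcripts of the cytokeratins KRT8 and KRT18, with means of 1851 and 1780 CPM (gene counts scaled by library size and TMM factors) in NC, as well as KRT7, CD44 and VIM at 1098, 755 and 755 CPM. Of the other urothelial and epithelial markers, PPARG stood at 22.9 CPM and EPCAM at 2.81 CPM, while KRT5, KRT19, CDH1, GATA3, UPK1A, UPK2 and UPK3A each averaged under 1 CPM. Of 7 markers of other cells, the leukocyte marker PTPRC and the fibroblast collagen COL1A2 were at 0 counts in all 6 libraries, which allows up to 3 counts in each. COL1A1, the most abundant, had 8 and 8 counts in NC, 21 and 19 under si-circ235-1 and 14 and 19 under si-circ235-2, and PDGFRB, CD68, PECAM1 and VWF had at most 6 counts in a library. The 7 genes summed to 0.918 and 0.978 CPM in NC, 2.10 and 1.45 CPM under si-circ235-1 and 1.12 and 1.39 CPM under si-circ235-2, and their part in the results was not tested. In bulk RNA, a lower share of cells with a transcript and less of it per cell cannot be told apart.

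A synthetase recognises its amino acid and the tRNAs that carry it, EPRS1 joining the glutamyl and prolyl activities in the same protein, and the charged tRNA is then handed to an elongation factor for delivery to the ribosome. Mitochondria translate their own small genome and import a separate set of synthetases encoded in the nucleus, except for glycine and lysine, whose enzymes GARS1 and KARS1 serve both compartments, and for glutamine, whose mitochondrial tRNA is first charged with glutamate and then amidated by the products of GATB, GATC and QRSL1. Many cytosolic synthetase genes are known targets of ATF4, the transcription factor of the amino acid response, which binds a short element called CARE (C/EBP-ATF response element). In the complex, AIMP1, AIMP2 and EEF1E1 are scaffold proteins without synthetase activity.

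The word TGATGNAA, the core of the CARE, was searched on both strands of RefSeq promoters (GRCh38.p14, 250 bases before to 50 bases after each start), because it separates the cytosolic genes into those with and without a candidate site for the same regulator. It was present in 7 of the 16 cytosolic genes with a promoter in the set, in 1 of 14 mitochondrial genes and in none of the 3 complex protein genes, against 4.46% of 27305 genes overall and 3.62% of 35116 promoters. Its TGATGCAA form was present in 6 of the cytosolic genes, against 1.08% of all genes. VARS1, YARS1, LARS1, AARS2 and VARS2 were not in the promoter set. A match is a description of the letters and not evidence of binding. The 30-base windows around the word are shown 5′ to 3′ on the strand that carries it, with the word in capitals.
AARS1 (chr16:70289675-70289704, plus strand): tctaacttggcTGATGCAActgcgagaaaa
IARS1 (chr9:92293692-92293721, plus strand): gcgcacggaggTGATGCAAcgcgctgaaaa
MARS1 (chr12:57488053-57488082, minus strand): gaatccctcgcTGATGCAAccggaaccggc
CARS1 (chr11:3057407-3057436, plus strand): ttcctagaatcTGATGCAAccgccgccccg
NARS1 (chr18:57621804-57621833, minus strand): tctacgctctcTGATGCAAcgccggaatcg
TARS1 (chr5:33440956-33440985, minus strand): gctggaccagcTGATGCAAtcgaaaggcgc
GARS1 (chr7:30594834-30594863, minus strand): ggctcggagcaTGATGAAAtcgccgcgtaa
YARS2 (chr12:32756076-32756105, minus strand): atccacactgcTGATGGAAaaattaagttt
Of the 8 genes carrying the word, AARS1, IARS1 and MARS1 were called in the direct comparison of the siRNAs, in which 39.7% of all genes were called, and CARS1, NARS1, TARS1, GARS1 and YARS2 were not called by edgeR in the 3 comparisons as reported. After a correction for transcript length and GC content, described further on, TARS1 was lower under si-circ235-2 than in NC (-0.43, edgeR adjusted p = 0.0281) and GARS1 was lower with si-circ235-2 when the siRNAs were compared directly (-0.35, adjusted p = 0.0428).

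In NC cells the cytosolic enzymes were far more abundant than the mitochondrial ones. Summed over its 19 genes, the cytosolic class reached 4536 and 4503 CPM in the NC libraries, and the 16 mitochondrial genes reached 569 and 573 CPM. Per kb of the longest transcript, the median cytosolic gene stood at 84.4 CPM per kb (range 15.9 for CARS1 to 255 for SARS1) and the median mitochondrial gene at 7.49 CPM per kb (range 0.0786 for SARS2 to 39.2 for IARS2). SARS1 was followed in the cytosolic class by QARS1 at 121, KARS1 at 118 and GARS1 at 115 CPM per kb, with little between them. Among the mitochondrial genes IARS2 and CARS2 led, at 39.2 and 37.3 CPM per kb, and YARS2, RARS2 and VARS2 came next, at 21.2 to 23.6 CPM per kb.

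For 13 amino acids a cytosolic gene was paired with the mitochondrial gene of the same name stem. Phenylalanine (FARSA, FARSB and FARS2), glutamate (EPRS1 and EARS2) and proline (EPRS1 and PARS2) have enzymes in both compartments but were not paired. The cytosolic partner was the more abundant in 12 of the 13 pairs. The exception was cysteine, for which CARS1 reached 0.427 of the level of CARS2 per kb. Over the 12 pairs other than serine, the median ratio of cytosolic to mitochondrial level was 5.19, and the ratio ran up to 31.1 for methionine. SARS2 was nearly silent in the table, with 4 and 1 counts in NC, 4 and 3 under si-circ235-1, and 21 and 15 under si-circ235-2. Other annotated genes cover 57.0% of its exon bases, among them a readthrough gene on the same strand that is listed at 0 in every library, so how its reads were assigned was not tested and its level is uncertain.

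**Figure D1:**
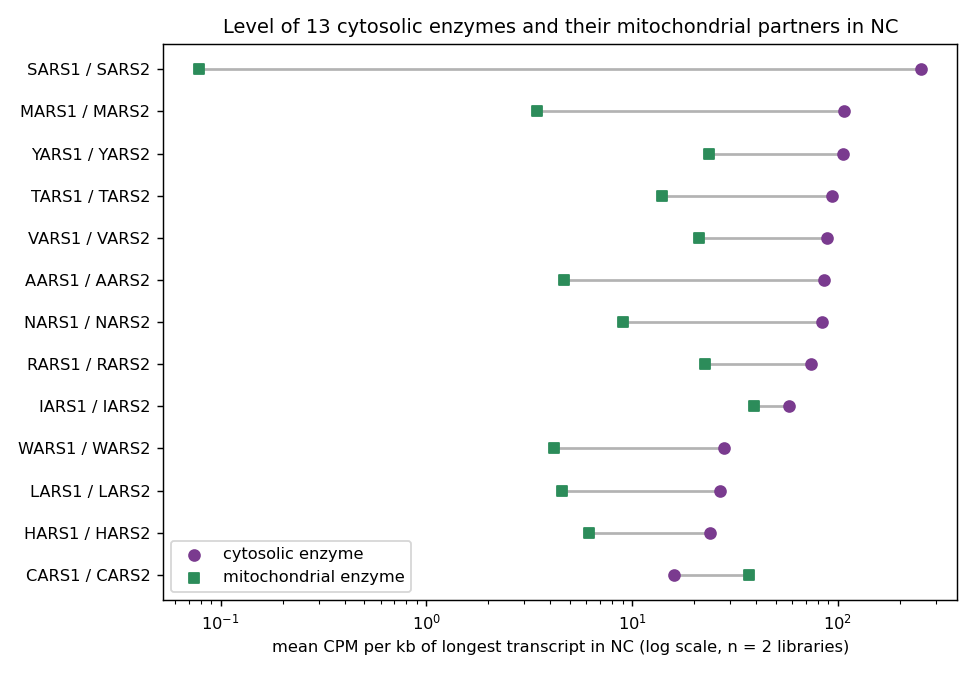
Mean level in NC (2 libraries) of each cytosolic synthetase (circles) and its mitochondrial partner (squares), in CPM per kb of the longest transcript on a log axis. The cytosolic enzyme lies to the right in every pair but CARS1 and CARS2, and SARS2 lies at 0.0786 CPM per kb.

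The cytosolic sum was 4520 ± 23.2 CPM (SD, n = 2) in NC, 4925 ± 246 under si-circ235-1 and 4753 ± 216 CPM with si-circ235-2. As a share of counts, without TMM factors, it was 0.403% and 0.465% in NC and 0.468% and 0.427% under si-circ235-1. On that scale the si-circ235-2 libraries were the highest, at 0.541% and 0.548%. The mitochondrial sum was 571 ± 3.14 CPM in NC, 598 ± 45.9 under si-circ235-1 and 679 ± 30.2 under si-circ235-2, where both libraries (700 and 657 CPM) lay above all others. The complex proteins summed to 103 ± 10.5, 125 ± 26.0 and 69.3 ± 1.44 CPM in the same order. With 2 libraries against 2, an exact permutation test cannot give a two-sided p below 0.333, so these sums were not tested.

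Under si-circ235-1, AARS1 and FARSB fell, SARS1 rose, and the mitochondrial enzyme HARS2 showed the largest change of the group. These 4 genes of 38 were called at an adjusted p under 0.05 in the quasi-likelihood test of edgeR, adjusted by Benjamini-Hochberg over the whole table. Called genes made up 5.88% of all genes tested (847 of 14415), 2.24% being higher and 3.64% lower. The split of 323 higher and 524 lower turned to 1339 and 870 once the trend over length and GC content was removed, and to 179 and 529 without TMM factors. Among the 19 cytosolic genes 1 rose and 2 fell (median log2 fold change -0.07), and among the 16 mitochondrial genes none rose and 1 fell (median 0.00, or -0.13 without SARS2, against -0.03 over all genes tested). With the trend removed the cytosolic split was 3 higher and 2 lower, YARS1 (0.60) and VARS1 (0.63) being added, and the mitochondrial split 3 higher and 1 lower, with FARS2 (0.87), CARS2 (0.59) and VARS2 (0.44) added (edgeR adjusted p from 0.0159 to 0.0491 for the 5). None of the 3 complex proteins was called by edgeR or DESeq2, or had an unadjusted p under 0.05.

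AARS1, the alanyl-tRNA synthetase (ENSG00000090861.15, chr16:70252295-70289543, minus strand, GRCh38), had 308 and 291 CPM in NC, 165 and 134 CPM under si-circ235-1 and 362 and 333 CPM under si-circ235-2. Both si-circ235-1 libraries lay below the other 4. The fall against NC was 2.00-fold, with a log2 fold change of -1.002 ± 0.19 (SE) and an adjusted p of 0.0175 in edgeR's quasi-likelihood test.

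SARS1, the seryl-tRNA synthetase (ENSG00000031698.12, chr1:109213918-109238169, plus strand), had 509 and 452 CPM in NC, 941 and 917 CPM under si-circ235-1 and 435 and 346 CPM under si-circ235-2. The si-circ235-1 libraries stood apart at the top, while those of si-circ235-2 lay below both NC libraries. SARS1 rose 1.93-fold under si-circ235-1 (log2 fold change 0.95 ± 0.21, edgeR adjusted p = 0.0284) and reached 494 CPM per kb there, against 143 for KARS1, the next cytosolic gene.

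The cytosolic phenylalanyl-tRNA synthetase is built from the products of FARSA, the catalytic alpha subunit, and FARSB, the beta subunit. A different one of them was called lower under each siRNA. FARSB (ENSG00000116120.9, chr2:222570536-222656337, minus strand) had 78.3 and 76.2 CPM in NC, 50.6 and 40.4 CPM under si-circ235-1 and 70.3 and 69.5 CPM under si-circ235-2. FARSA (ENSG00000179115.10, chr19:12922479-12934037, minus strand) had 61.5 and 47.5 CPM in NC, 49.2 and 42.3 CPM under si-circ235-1 and 25.8 and 20.3 CPM under si-circ235-2. FARSB fell 1.70-fold under si-circ235-1 (log2 fold change -0.76 ± 0.19, edgeR adjusted p = 0.0403) and FARSA 2.36-fold under si-circ235-2 (log2 fold change -1.24 ± 0.22, edgeR adjusted p = 0.00349). Per kb, the ratio of FARSA to FARSB was 1.29 and 1.02 in the NC libraries, 1.59 and 1.71 under si-circ235-1 and 0.602 and 0.478 under si-circ235-2. The ratio did not overlap between the 3 conditions and was not tested. It was not corrected for GC content (60.3% for FARSA, 41.6% for FARSB) or for the trend over transcript length (2057 and 3369 bases). With both trends removed, as described further on, FARSA stood at -0.75 and FARSB at -0.34 under si-circ235-2 (edgeR adjusted p = 0.00586 and 0.153). Under si-circ235-1 they then stood at 0.05 and -0.80 (edgeR adjusted p = 0.835 and 0.0147).

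HARS2, the mitochondrial histidyl-tRNA synthetase (ENSG00000112855.14, chr5:140691426-140699318, plus strand), had 15.3 and 15.8 CPM in NC, 4.76 and 5.02 CPM under si-circ235-1 and 19.4 and 18.1 CPM under si-circ235-2, from 68 to 379 counts per library. The si-circ235-1 values were the lowest by a wide margin and the replicates lay close together. The fall was 3.18-fold (log2 fold change -1.67 ± 0.24, edgeR adjusted p = 0.00747). Its cytosolic counterpart HARS1 (ENSG00000170445.12) lies head to head with it on the minus strand, with RefSeq starts 85 bases apart and 437 exon bases shared in GENCODE 29. HARS1 had 83.3 and 83.2 CPM in NC, 103 and 68.7 CPM under si-circ235-1 and 91.9 and 76.8 CPM under si-circ235-2, and neither siRNA gave a call for it (log2 fold changes 0.05 and 0.02, edgeR adjusted p = 0.923 and 0.958). The 95% intervals of these changes ran from -0.43 to 0.52 and from -0.46 to 0.50. After the correction for length and GC content HARS1 stood at 0.07 and -0.45 (edgeR adjusted p = 0.807 and 0.0798). Between the siRNAs it was then called lower with si-circ235-2 (-0.53, adjusted p = 0.0328). The sequencing was not strand-specific, so reads in the shared exons cannot be assigned to HARS1 or HARS2 by strand.

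These calls changed when a library was left out. Without si-circ235-1 replicate 2 none was called (log2 fold changes -0.86 for AARS1, 0.97 for SARS1, -0.61 for FARSB and -1.71 for HARS2, edgeR adjusted p from 0.144 to 0.276), and no gene of the whole table was called by edgeR, with 2110 of 15037 at an unadjusted p under 0.05. Without NC replicate 1 or NC replicate 2, AARS1 (-0.96 and -1.005), SARS1 (1.04 and 0.90) and FARSB (-0.74 and -0.75) kept their direction without a call, as did SARS1 (0.93) and FARSB (-0.94) without si-circ235-1 replicate 1.

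Under si-circ235-2, IARS1, LARS1, IARS2 and LARS2 rose, FARSA and VARS1 fell, and EEF1E1 of the complex fell the most. With SARS2, whose call draws on the libraries that brought it through the filter, these were 8 of 38 genes, against 31.4% of all genes tested (4530 of 14415, with 15.7% higher and 15.7% lower). In the cytosolic class 2 genes rose and 2 fell (median log2 fold change 0.07), a split that became 1 and 4 with the length and GC trend taken out, where EPRS1 (-0.46, adjusted p = 0.0375) and TARS1 joined the lower genes and LARS1 left the higher ones, and 4 and 1 without TMM factors. In the mitochondrial class 3 rose, or 2 of 15 without SARS2, and none fell by edgeR or DESeq2, with 7 of the 16 at an unadjusted p under 0.05 (median 0.25, or 0.22 without SARS2, against 0.00 over all genes tested). With the trend taken out 2 were higher, AARS2 (0.58, edgeR adjusted p = 0.0282) and SARS2, and WARS2 was lower (-0.72, adjusted p = 0.0259). Without TMM factors 6 were higher and none lower (37.5%, beside 31% of all genes, with 3173 higher and 1294 lower). Called genes made up 21.1% of the list, and the difference from the share of all genes was not tested.

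Among the 13 pairs, isoleucine and leucine were the amino acids for which the enzymes of both compartments were called higher. Both log2 fold changes were also positive, without a call, for methionine (0.29 for MARS1, 0.78 for MARS2), asparagine (0.36 and 0.32) and alanine (0.22 and 0.60). The same held for histidine (0.02 and 0.27) and threonine (0.07 and 0.10). IARS1 (ENSG00000196305.17, chr9:92210207-92293756, minus strand), the isoleucyl-tRNA synthetase of the cytosol, had 236 and 304 CPM in NC, 231 and 208 CPM under si-circ235-1 and 504 and 513 CPM under si-circ235-2. Both si-circ235-2 libraries exceeded every other one. It rose 1.89-fold (log2 fold change 0.91 ± 0.20, edgeR adjusted p = 0.00726). LARS1 (ENSG00000133706.17, chr5:146113038-146182660, minus strand), the cytosolic leucyl-tRNA synthetase, had 121 and 135 CPM in NC and 185 and 197 CPM under si-circ235-2, with 117 and 99.6 CPM under si-circ235-1. The rise was 1.49-fold (log2 fold change 0.58 ± 0.18, edgeR adjusted p = 0.0323).

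Their mitochondrial counterparts moved likewise. LARS2 (ENSG00000011376.9, chr3:45388506-45549421, plus strand) had 21.2 and 22.1 CPM in NC, 16.4 and 13.5 CPM under si-circ235-1 and 39.2 and 39.1 CPM under si-circ235-2. It rose 1.81-fold under si-circ235-2 (log2 fold change 0.86 ± 0.21, edgeR adjusted p = 0.0117). IARS2 (ENSG00000067704.9, chr1:220094102-220148041, plus strand) had 128 and 151 CPM in NC, 166 and 168 CPM under si-circ235-1 and 213 and 209 CPM under si-circ235-2, a rise of 1.51-fold against NC (log2 fold change 0.60 ± 0.18, edgeR adjusted p = 0.0274). The 3 conditions did not overlap for LARS2 or IARS2. The SARS2 call (log2 fold change 2.55 ± 0.84, edgeR adjusted p = 0.0406) rested on the few counts given above, in a gene tested only because its si-circ235-2 counts were high, and was lost when any 1 library was left out, with log2 fold changes from 1.87 to 3.83.

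VARS1 (ENSG00000204394.12, chr6:31777518-31795953, minus strand), the cytosolic valyl-tRNA synthetase, moved the other way from the isoleucine and leucine enzymes, although valine is also a branched-chain amino acid. It had 434 and 336 CPM in NC, 486 and 461 CPM under si-circ235-1 and 258 and 223 CPM under si-circ235-2. The si-circ235-2 libraries were the lowest of the 6. It fell 1.60-fold (log2 fold change -0.68 ± 0.20, edgeR adjusted p = 0.0279), a call that was lost without TMM factors (-0.41, adjusted p = 0.0857). The mitochondrial VARS2 was not called (-0.19 ± 0.21, edgeR adjusted p = 0.511). It shares 1858 exon bases with GTF2H4 on the same strand, which is listed at 0 in every library, so the level of VARS2 is uncertain as well.

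Several of these values moved with a correction for transcript length and GC content. When a spline over both was removed from each library, LARS1 (0.19, adjusted p = 0.363), LARS2 (0.32, adjusted p = 0.141) and IARS2 (0.21, adjusted p = 0.202) were no longer called by edgeR, while FARSA (-0.75, adjusted p = 0.00586), IARS1 (0.39, adjusted p = 0.0476), VARS1 (-0.59, adjusted p = 0.0141) and EEF1E1 (-0.93, adjusted p = 0.0154) were. Without NC replicate 1, FARSA alone kept its call: IARS1 (0.74), LARS1 (0.49), VARS1 (-0.49), LARS2 (0.82), IARS2 (0.47), SARS2 (3.83) and EEF1E1 (-1.54) lost theirs. LARS1 was lost on leaving out NC replicate 2 (0.67) and either si-circ235-2 library (0.62 and 0.53), as VARS1 (-0.79 and -0.57) and IARS2 (0.58 and 0.61) were on leaving out si-circ235-2 replicate 1 or 2. The direction held in each case.

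**Figure D2:**
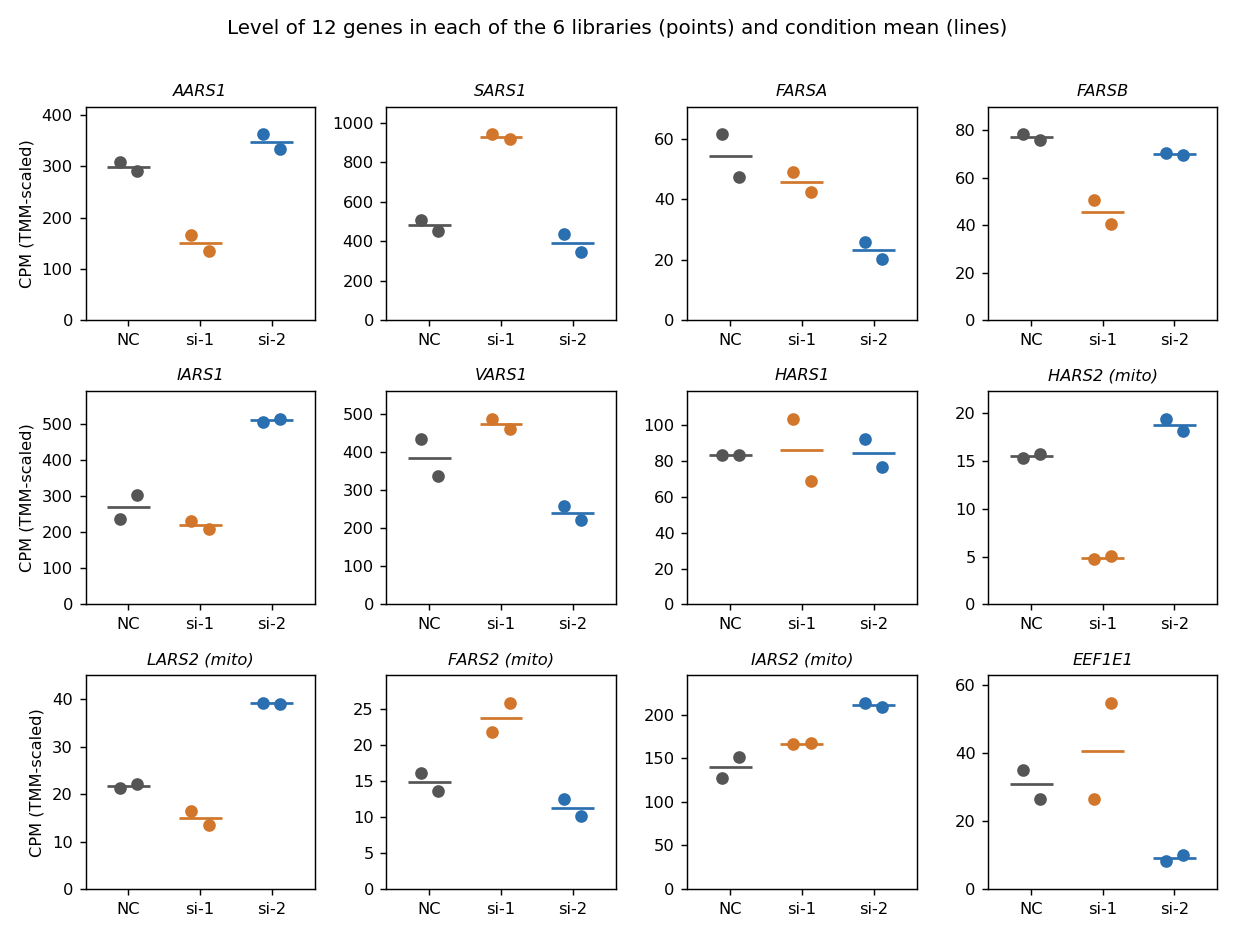
Level of 12 genes (CPM on TMM-scaled library sizes, axes from 0) in each of the 6 libraries, with points for libraries and lines for condition means; si-1 and si-2 stand for si-circ235-1 and si-circ235-2. AARS1, FARSB and HARS2 are lowest under si-circ235-1, FARSA, VARS1 and EEF1E1 are lowest under si-circ235-2, and IARS1, LARS2 and IARS2 are highest under si-circ235-2.

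The multisynthetase complex joins cytosolic synthetases of several amino acids with 3 scaffold proteins. EEF1E1 (ENSG00000124802.11, chr6:8073360-8102578, minus strand) had 35.2 and 26.6 CPM in NC, 26.7 and 54.8 CPM under si-circ235-1 and 8.38 and 9.94 CPM under si-circ235-2. The si-circ235-2 libraries were lowest, and of the si-circ235-1 replicates one lay at the level of NC and the other above it. EEF1E1 fell 3.37-fold under si-circ235-2 (log2 fold change -1.75 ± 0.33, edgeR adjusted p = 0.0041) and was not called under si-circ235-1 (0.40 ± 0.31, edgeR adjusted p = 0.462). With the length and GC trend removed its log2 fold change was -0.93, and its transcript of 1077 bases was the shortest of the group. A readthrough gene on the same strand, listed at 0 in every library, covers 18.7% of its exon bases.

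AIMP1 (ENSG00000164022.16, chr4:106315544-106349226, plus strand) had 59.0 and 47.1 CPM in NC, 60.4 and 77.9 CPM under si-circ235-1 and 32.7 and 38.9 CPM under si-circ235-2. It was lowest under si-circ235-2 without reaching the threshold against NC (log2 fold change -0.57 ± 0.21, edgeR adjusted p = 0.0627), and its value was -0.07 with the trend over length and GC content removed (adjusted p = 0.795). AIMP2 (ENSG00000106305.9, chr7:6009245-6023834, plus strand) had 15.9 and 21.5 CPM in NC, 19.2 and 10.3 CPM under si-circ235-1 and 27.3 and 21.6 CPM under si-circ235-2. The si-circ235-1 values overlapped those of NC, the lower si-circ235-2 value lay beside the higher one of NC, and AIMP2 was not called under si-circ235-2 (0.38 ± 0.30, edgeR adjusted p = 0.365). EIF2AK1, on the opposite strand, covers 28.9% of the exon bases of AIMP2.

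Of the 7 synthetases of the complex on the list (EPRS1, IARS1, KARS1, LARS1, MARS1, QARS1 and RARS1), none was called under si-circ235-1 by edgeR or DESeq2 or had an unadjusted p under 0.05, with log2 fold changes between -0.35 and 0.27. Under si-circ235-2 IARS1 and LARS1 were higher, as given above, and the other 5 lay between -0.33 and 0.29. The 2 of 7 called were 28.6%, near the 31.4% of all genes, and 0 of 7 under si-circ235-1 stood beside 5.88%. The enzymes that serve both compartments moved little: GARS1 had log2 fold changes of 0.29 ± 0.19 and 0.23 ± 0.19 under si-circ235-1 and si-circ235-2, and KARS1 had 0.27 ± 0.19 and 0.25 ± 0.19. None of these 4 changes was called by edgeR (adjusted p from 0.340 to 0.407).

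The comparisons with NC share the NC libraries. Being called under only one siRNA does not show that the siRNAs differed, which was asked directly next.

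**Figure D3:**
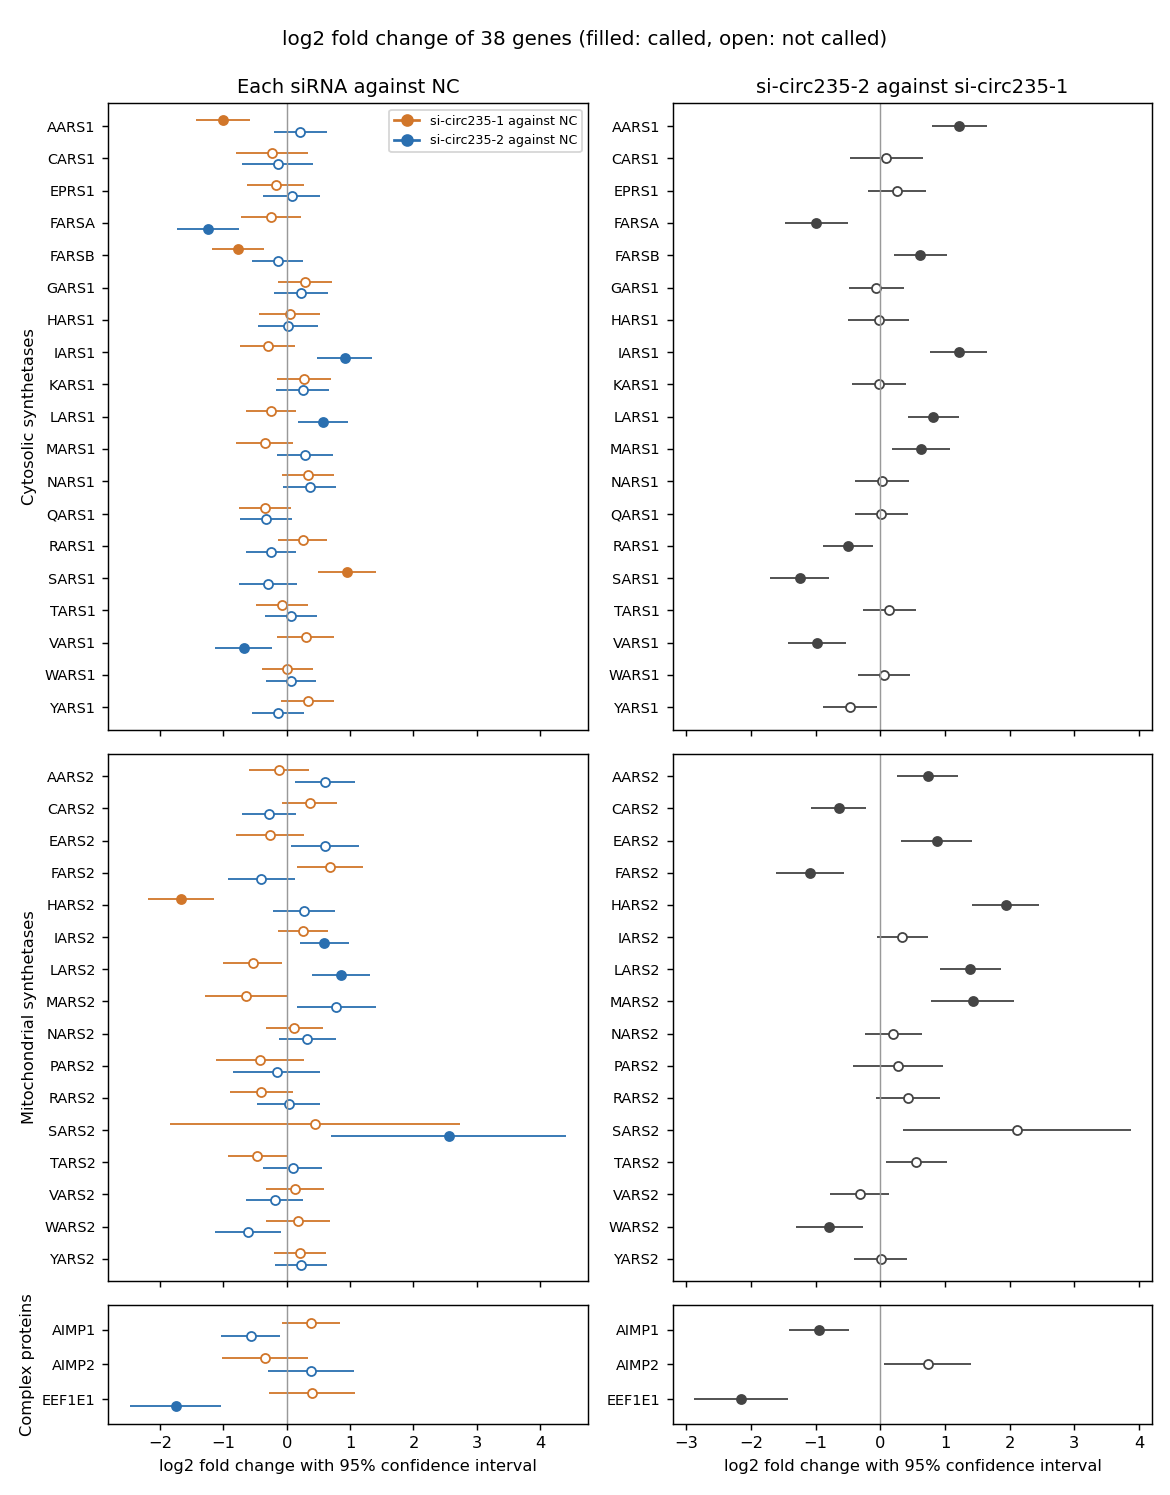
log2 fold change with its 95% confidence interval for all 38 genes, each siRNA against NC on the left and si-circ235-2 against si-circ235-1 on the right; filled points were called at an adjusted p under 0.05 and open points were not. AARS1, FARSB, SARS1 and HARS2 are filled for si-circ235-1, and 8 genes are filled for si-circ235-2 against NC.

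Set directly against si-circ235-1, si-circ235-2 gave 19 calls among the 38 genes, against 39.7% of all genes tested (5725 of 14415, with 21.1% higher and 18.6% lower). Over all genes 3047 were higher and 2678 lower, against 2438 and 3397 with the trend over length and GC content taken out. Of the cytosolic enzymes 5 were higher and 4 lower under si-circ235-2 (median log2 difference 0.02), and 3 and 6 after that correction. Of the mitochondrial enzymes 5 were higher and 3 lower (median 0.38, or 0.34 without SARS2, against 0.04 over all genes tested). Their split was 5 and 4 after that correction. Without TMM factors it was 9 and 1, beside 4534 and 1496 over all genes. AIMP1 and EEF1E1 were lower.

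The cytosolic genes with the lowest p were AARS1, IARS1, SARS1 and VARS1. AARS1 was 2.33-fold higher under si-circ235-2 than under si-circ235-1 (log2 difference 1.22 ± 0.19, edgeR adjusted p = 0.00116) and IARS1 2.32-fold higher (1.21 ± 0.20, adjusted p = 0.00141). SARS1 was 2.38-fold lower (-1.25 ± 0.21, edgeR adjusted p = 0.0015) and VARS1 1.97-fold lower (-0.98 ± 0.20, edgeR adjusted p = 0.00401). FARSA was lower and FARSB higher, by -0.99 ± 0.22 and 0.62 ± 0.19 on the log2 scale (edgeR adjusted p = 0.00536 and 0.022). LARS1 and MARS1 were also called higher and RARS1 lower.

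Of the mitochondrial genes, HARS2 (log2 difference 1.94 ± 0.24, edgeR adjusted p = 0.000546) and LARS2 (1.39 ± 0.21, adjusted p = 0.00104) were higher under si-circ235-2. MARS2, the methionyl enzyme (ENSG00000247626.4), had 8.13 and 12.7 CPM in NC, 7.83 and 5.58 CPM under si-circ235-1 and 16.7 and 19.2 CPM under si-circ235-2. The siRNA groups lay on either side of NC, with NC replicate 1 close to the si-circ235-1 values, and MARS2 was 2.68-fold higher under si-circ235-2 (1.42 ± 0.29, edgeR adjusted p = 0.00363). FARS2, the phenylalanyl enzyme of mitochondria (ENSG00000145982.11), had 16.1 and 13.6 CPM in NC, 21.8 and 25.8 CPM under si-circ235-1 and 12.4 and 10.1 CPM under si-circ235-2. It was 2.12-fold lower under si-circ235-2 (-1.08 ± 0.24, edgeR adjusted p = 0.00526), and the siRNA groups again lay on either side of NC. AARS2 and EARS2 were also called higher, and CARS2 and WARS2 lower.

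Both EEF1E1 (-2.15 ± 0.33, edgeR adjusted p = 0.00104) and AIMP1 (-0.95 ± 0.21, adjusted p = 0.00553) were lower with si-circ235-2 than with si-circ235-1. AIMP2 was not called (0.73 ± 0.31, edgeR adjusted p = 0.0809) except without TMM factors or after the correction (0.95 with the latter, adjusted p = 0.0279). AARS1, FARSA, IARS1, SARS1, VARS1, FARS2, HARS2, LARS2 and EEF1E1, 9 of the 19 genes, were called in this comparison under all 12 alternatives run. With the length and GC trend removed, EEF1E1 stood at -1.11, LARS2 at 0.76, IARS1 at 0.72 and AARS1 at 0.78. SARS1 (-1.25), VARS1 (-1.23), HARS2 (1.69), FARSA (-0.80) and FARS2 (-0.94) moved less. Removing the length and GC trend ended the calls of FARSB (0.45), MARS1 (0.35), RARS1 (-0.27), AARS2 (0.39), EARS2 (0.33) and AIMP1 (-0.39). Leaving out si-circ235-1 replicate 2 ended those of FARSB (0.46), LARS1 (0.70), MARS1 (0.44), RARS1 (-0.40), AARS2 (0.66), CARS2 (-0.63), EARS2 (0.56), MARS2 (1.19), WARS2 (-0.75) and AIMP1 (-0.76), and leaving out TMM factors those of RARS1 (-0.17), CARS2 (-0.31) and WARS2 (-0.45). RARS1 (-0.61), AARS2 (0.80), CARS2 (-0.67) and WARS2 (-0.83) were not called without si-circ235-1 replicate 1, nor were FARSB (0.61), MARS1 (0.58), RARS1 (-0.57) and WARS2 (-0.71) without si-circ235-2 replicate 1, or FARSB (0.63), MARS1 (0.68), RARS1 (-0.43) and CARS2 (-0.55) without si-circ235-2 replicate 2. RARS1 (-0.50) was also not called with no filter on low counts. MARS1 shares 355 exon bases with DDIT3 on the opposite strand, and EARS2 shares 370 with UBFD1, whose own log2 difference was 0.78 (edgeR adjusted p = 0.00774).

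**Figure D4:**
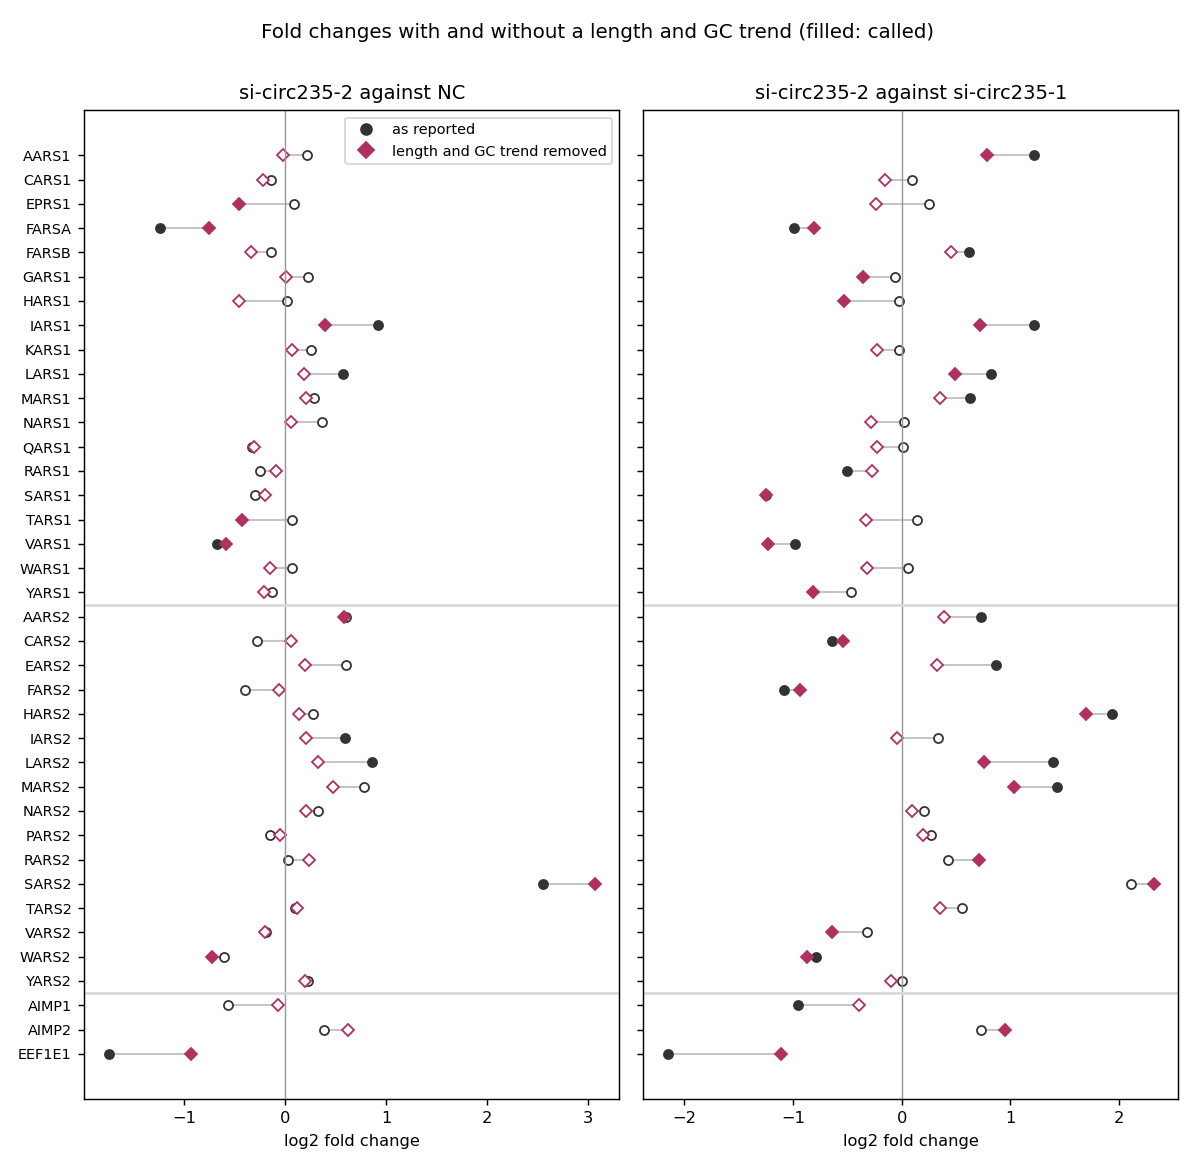
log2 fold change of the 38 genes as reported (circles) and after a spline over transcript length and GC content was taken out (diamonds), for si-circ235-2 against NC and against si-circ235-1; filled symbols were called. LARS1, LARS2 and IARS2 move toward 0 and lose their call against NC, and FARSA, IARS1, VARS1 and EEF1E1 keep theirs.

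Partners of the 13 pairs had log2 fold changes of the same sign in 9 pairs under si-circ235-1 and in 9 under si-circ235-2. Their log2 differences between the siRNAs had the same sign in 7 of 13. The enzymes of phenylalanine, glutamate and proline were outside these pairs and were not counted. Leaving aside serine, for which SARS2 is uncertain, these were 8, 9 and 7 of 12 pairs. The mitochondrial enzyme had the higher log2 fold change in 4 of these 12 pairs with si-circ235-1 and in 8 with si-circ235-2. Under si-circ235-1 the alanine enzyme of the cytosol fell (-1.002 for AARS1 against -0.13 for AARS2) and the histidine enzyme of mitochondria fell (-1.67 for HARS2 against 0.05 for HARS1). For serine, SARS1 rose by 0.95 under si-circ235-1 while SARS2 remained at a few counts. Differences between partners were not tested.

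The genes that supply and use charged tRNA were then described from lists of their own, also drawn up with earlier results known. ATF4 itself had 762 and 674 CPM in NC, 604 and 503 CPM under si-circ235-1 and 557 and 456 CPM under si-circ235-2. It was lower in all 4 knockdown libraries than in NC but was not called (log2 fold changes -0.37 and -0.50, edgeR adjusted p = 0.299 and 0.0932). DDIT3, a transcription factor gene induced by ATF4, was not called against NC (0.51 and -0.33, edgeR adjusted p = 0.205 and 0.313) and was lower with si-circ235-2 than with si-circ235-1 (-0.83 ± 0.24, adjusted p = 0.0168), a call lost without TMM factors (-0.50, adjusted p = 0.108) or without si-circ235-1 replicate 2 (-0.73, adjusted p = 0.108). ASNS, the asparagine synthetase and a classic target of ATF4, was scarce at 1.05 and 0.917 CPM in NC, and rose to 2.596 and 2.44 CPM under si-circ235-2 (1.35 ± 0.43, edgeR adjusted p = 0.0344). The ASNS call was lost with DESeq2 (adjusted p = 0.0805), with the length and GC trend removed (1.19, edgeR adjusted p = 0.0603), and without any 1 of the NC and si-circ235-2 libraries (1.26 to 1.44).

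Of the 25 genes of the amino acid response list, si-circ235-1 raised 1 and lowered 3 (median log2 fold change 0.23), and si-circ235-2 raised 4 and lowered 3 (median 0.27). Called genes made up 16% and 28% of the list, beside 5.88% and 31.4% of all genes tested, so the share under si-circ235-2 was near the background. Without TMM factors si-circ235-2 gave 10 higher and 3 lower, 52% of the list beside 31% of all genes. With the trend over length and GC content removed, 6 were higher and 4 lower in each comparison, or 40% of the list beside 15.3% and 24.6% of all genes. TRIB3, SESN2 and CEBPB were then called higher under si-circ235-1 (0.74, 0.84 and 0.67, edgeR adjusted p = 0.00526, 0.00701 and 0.036) and under si-circ235-2 (0.69, 0.50 and 1.08, edgeR adjusted p = 0.00473, 0.0308 and 0.00473). They were chosen for naming after these values were seen, and both comparisons use the same NC libraries. CHAC1, a glutathione-degrading enzyme induced by ATF4, fell under both siRNAs (-1.18 ± 0.26 and -1.32 ± 0.26, edgeR adjusted p = 0.0277 and 0.00474). With the trend removed CHAC1 stood at -0.88 and -0.65 (edgeR adjusted p = 0.00968 and 0.0192). Both calls were lost without NC replicate 1 (-0.88 and -1.02). The CHAC1 call under si-circ235-1 was also lost without NC replicate 2 (-1.40) and without si-circ235-1 replicate 1 (-1.30) or replicate 2 (-1.08). GPT2, a mitochondrial alanine transaminase, rose under si-circ235-1 (1.04, edgeR adjusted p = 0.0119) and PYCR1, of proline synthesis, fell (-1.04, adjusted p = 0.019). Under si-circ235-2, NUPR1 fell by 2.68 on the log2 scale (edgeR adjusted p = 0.00179), while EIF2AK4, the kinase GCN2 that senses uncharged tRNA, rose (1.05, adjusted p = 0.00387, but 0.37 and 0.0588 once the trend over length and GC content was removed) and so did XPOT, the exporter of tRNA from the nucleus (0.96, adjusted p = 0.00589).

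Of 13 amino acid transporters, 4 were higher and 1 lower under si-circ235-2 (38.5% called, beside 31.4% of all genes), with 5 at an unadjusted p under 0.05. Under si-circ235-1 none was higher and 1 lower (7.69% called, beside 5.88%), with 4 at an unadjusted p under 0.05 and 1 higher and 2 lower by DESeq2. Both shares were near those of all genes in the reported fit. Under si-circ235-1, 2 were lower without TMM factors (15.4%, beside 4.91% of all genes). With the length and GC trend removed 2 were higher and 2 lower there (30.8%, beside 15.3%). SLC7A1, which imports arginine and lysine, rose from 54.1 and 70.5 CPM in NC to 191 and 204 CPM under si-circ235-2 (1.66 ± 0.20, edgeR adjusted p = 0.00179). SLC36A1 rose by 1.44 and SLC38A1 by 0.94 on the log2 scale (edgeR adjusted p = 0.00362 and 0.00978). SLC3A2, the heavy chain shared by several exchangers, fell (-0.82, adjusted p = 0.0219). With the length and GC trend removed SLC7A1 (1.08), SLC36A1 (0.85), SLC38A1 (0.38) and SLC3A2 (-0.52) were smaller but still called. SLC6A9, a glycine transporter, fell under si-circ235-1 (-1.61 ± 0.24, edgeR adjusted p = 0.0087).

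For the cytosolic factors that deliver charged tRNA, none of 8 was called under si-circ235-1 in the reported edgeR fit. There 2 had an unadjusted p under 0.05, and DESeq2 gave 1 higher and 1 lower. Under si-circ235-2 none was higher and 3 were lower: EEF1B2 (-0.78), EEF1A2 (-0.96) and EIF2S2 (-0.59, edgeR adjusted p from 0.0207 to 0.0415 for the 3). These were 37.5% of the list, beside 31.4% of all genes. EIF2S2 lost its call without TMM factors (-0.32, edgeR adjusted p = 0.179) and in the fit of 2 conditions alone (-0.59, adjusted p = 0.0561). It was also lost when any single library was left out (-0.63 to -0.53). With the length and GC trend removed EEF1A2 stood at -0.13 under si-circ235-2 (edgeR adjusted p = 0.571) and was no longer called. Under si-circ235-1 the same correction gave EEF1A2 (1.07) and EEF1D (0.54) as higher and EEF2 (-0.57) as lower. Their edgeR adjusted p ran from 0.00417 to 0.0428, and they were 37.5% of the list, beside 15.3% of all genes. Without TMM factors 1 of the 8 was lower under si-circ235-1. The 18 factors of mitochondrial delivery and tRNA maturation gave no call under si-circ235-1 in the reported edgeR fit or DESeq2 (2 at an unadjusted p under 0.05). With the length and GC trend removed, HSD17B10 was higher there (0.59, edgeR adjusted p = 0.0339) and PRORP lower (-1.23, adjusted p = 0.0307). These were 11.1% of the list, beside 15.3% of all genes. Under si-circ235-2 the reported split was 1 higher and 5 lower (33.3%, near the 31.4% of all genes). Without TMM factors the latter split was 2 higher and 1 lower, the calls of TRMT10C, TSFM, TUFM and TRMU being lost. Among these factors, HSD17B10, a subunit of mitochondrial ribonuclease P, fell from 528 and 319 CPM in NC to 172 and 136 CPM under si-circ235-2 (-1.46 ± 0.26, edgeR adjusted p = 0.00346). Its partner TRMT10C fell as well (-1.39, edgeR adjusted p = 0.0175), with 10.4 and 29.97 CPM in the si-circ235-2 replicates. GFM2, a mitochondrial ribosome recycling factor, rose (1.11, edgeR adjusted p = 0.0128), whereas the elongation factor gene TSFM fell (-0.81, adjusted p = 0.0205). Of 7 genes for editing and other handling of aminoacyl-tRNA, none was called by edgeR or DESeq2 under si-circ235-1 (1 at an unadjusted p under 0.05) and PTRH2 alone was lower under si-circ235-2 (-0.80, edgeR adjusted p = 0.0204), a call lost without TMM factors (-0.53, adjusted p = 0.0693). Between the siRNAs, genes called higher and lower with si-circ235-2 numbered 7 and 5 for the amino acid response, 4 and 1 for the transporters, 1 and 4 for cytosolic delivery, 2 and 4 for the mitochondrial list and 0 and 2 for editing and handling. These were 48%, 38.5%, 62.5%, 33.3% and 28.6% of the lists in that order, beside 39.7% of all genes tested. Without TMM factors the edgeR splits were 8 and 3, 5 and 0, 2 and 2, 6 and 2, and 0 and 0. The shares were then 44%, 38.5%, 50%, 44.4% and 0%, beside 41.8% of all genes. Removing the length and GC trend gave 5 and 6, 4 and 4, 2 and 5, 4 and 5, and 0 and 4. Those shares were 44%, 61.5%, 87.5%, 50% and 57.1%, beside 40.5% of all genes.

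Many calls on these lists were lost when a library was left out, as were those over all genes, which fell from 4530 to 769 for si-circ235-2 without NC replicate 1. Of the 22 calls for si-circ235-2 against NC, NUPR1, SLC7A1 and HSD17B10 alone were kept without NC replicate 1, and 10 were kept without si-circ235-2 replicate 2. The log2 fold changes of the 19 lost without NC replicate 1 were 0.598 to 1.07 times those reported (median 0.787). Removing the trend over length and GC content left 16 of the 22 and added 10 others, leaving out TMM factors also left 16, and for si-circ235-1 the trend removal left all 5 and added 14. Of the 5 calls for si-circ235-1 against NC, all were lost in edgeR without NC replicate 1 (adjusted p from 0.0588 to 0.161) or without si-circ235-1 replicate 2 (0.145 to 0.295). SLC6A9 alone was kept without NC replicate 2, while 3 calls were kept without si-circ235-1 replicate 1. None of these calls reversed its direction.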

How the data were processed

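RNA of T24 cells was enriched with oligo(dT) beads, and per the labels' processing notes FastQC, cutadapt and STAR were used with build hg38. The sequencing was not strand-specific, and the sources used here name neither the counting tool nor its annotation. The authors deposited 1 table of whole-number counts per gene, not normalized, with 58288 identifiers, of which 99.55% were found in GENCODE 29. Coordinates, transcript lengths and overlaps were taken from GENCODE 29 (GRCh38) and promoter sequences from RefSeq (GRCh38.p14). Genes were filtered with filterByExpr by condition, scaled by TMM and fitted over all 6 libraries with 1 mean per condition by the quasi-likelihood test of edgeR 4.0.16 in R 4.3.3. P-values were adjusted by Benjamini-Hochberg over 14415 genes, and genes under 0.05 were called. SE was the log2 fold change divided by the root of F. CPM used TMM-scaled library sizes, and levels between genes were compared per kb of the longest transcript. Replicates of a condition differed by more than counting error (chi-square per degree of freedom 23.4 to 34.9). The scripts were tested on simulated data. DESeq2 1.42.0 was an alternative.

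The members and lists were chosen with earlier results of these data known. Genes described singly were, in each comparison and class, up to 4 called members with the lowest p, with AIMP1, AIMP2, EEF1E1, GARS1, KARS1, HARS1 and HARS2 always included, and from each related list up to 4 called genes per comparison, with ATF4, ASNS and DDIT3 always included. FARSA and FARSB in the direct comparison, MARS1, EARS2, VARS2, EPRS1, TARS1, TRIB3, SESN2, CEBPB and the genes whose calls other settings gained or lost were named beyond this rule after their values were seen. SLC1A3 and EEF1G of the related lists are listed at 0 counts in all 6 libraries and were not tested. EEF1G encodes an elongation factor subunit that dividing cells use, so how its reads were assigned is uncertain. A further gene is not reported here.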

Additional observations from a re-analysis of the deposited data

How the results depend on the processing

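No called member reversed its direction under any alternative. Of the 31 member calls over the 3 comparisons, 22 were kept with the length and GC trend removed (which added 16 others), 27 without TMM factors, 30 without the filter on low counts, and all 31 in a fit of the 2 conditions alone. DESeq2 kept 30, and gave no adjusted p for the other. Genes called for si-circ235-1 against NC numbered 847 in the reported fit, 1507 with DESeq2, 1678 without the filter, 1642 with the 2 conditions alone and 2209 with the trend removed. For the same comparison the trend removal gave 5 cytosolic and 4 mitochondrial calls and a mitochondrial median log2 fold change of 0.12, and the fit of 2 conditions gave 2 mitochondrial calls. For si-circ235-2 against NC, leaving out TMM factors gave 6 mitochondrial calls and medians of 0.32 (cytosolic) and 0.50 (mitochondrial), and the trend removal gave medians of -0.20 and 0.19. For si-circ235-2 against si-circ235-1 the medians were 0.36 and 0.72 without TMM factors and -0.27 and 0.26 with the trend removed, so the sign of the cytosolic median depended on the correction. Without TMM factors the median of all genes moved to -0.11, 0.25 and 0.37 in the 3 comparisons, and the calls split as 179 higher and 529 lower, 3173 and 1294, and 4534 and 1496. With the trend removed the splits were 1339 and 870, 1504 and 2049, and 2438 and 3397, against 323 and 524, 2270 and 2260, and 3047 and 2678 as reported. The cause of these shifts was not tested.

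With each library left out in turn, all genes called ranged from 0 to 1482 for si-circ235-1 against NC, from 769 to 4240 for si-circ235-2 against NC and from 2817 to 5558 between the siRNAs. Cytosolic calls ranged from 0 to 3, 1 to 4 and 5 to 9, and mitochondrial calls from 0 to 1, 0 to 3 and 3 to 8. Cytosolic medians ranged from -0.19 to 0.07, 0.001 to 0.11 and -0.093 to 0.16, and mitochondrial medians from -0.16 to 0.056, 0.18 to 0.32 and 0.29 to 0.75. At the counts of 0 for si-circ235-1, reached by edgeR without si-circ235-1 replicate 2, 2110 genes, 3 cytosolic and 1 mitochondrial had an unadjusted p under 0.05. The replicate numbers did not pair the libraries: replicate differences correlated at -0.0943, 0.149 and 0.139 between conditions. With the replicate block 369 genes were higher and 568 lower, 2311 and 2439, and 3142 and 2901, and all 31 member calls were kept. With 2 libraries per condition, many changes were not detectable, and a gene without a call may still have changed. In the simulated data, a log2 change of 1 was recovered in 22%, 28.5% and 20% of 200 changed genes in the 3 comparisons. A log2 change of 2 was recovered in 84.5%, 80% and 85.5%. False calls made up 5% to 9.14% of the calls there.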
